A study of Danio rerio with 9 samples.

Results

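The eyes of control zebrafish embryos at 48 hpf (hours post fertilization) were compared with those at 36 hpf, by the arrays whose titles name them as controls at these ages. These are 2 of the 9 arrays of the study, 1 array for each age, and each measured 15502 probe sets on dissected embryonic eyes of a strain that the labels do not name. The other arrays hold control and ethanol eyes at 27 and 30 hpf, ethanol eyes at 48 hpf and at 36 hpf, and eyes at 24 hpf taken before treatment. The labels state neither the dose nor the hours of ethanol, nor how many embryos gave the eyes of an array. The question put to the control pair was which genes of the photoreceptors, inner retina, lens and muscle came on between these ages, and which proliferation genes went down.

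For 3 of the 9 samples the treatment characteristic contradicts the title. The 36 hpf control array is marked there as ethanol, and the 36 hpf ethanol and 30 hpf ethanol arrays as untreated. The source name fits the title for all 9, so the titles were followed. Against the other 36 hpf array, 23 of 127 genes counted and named in control eyes lay under 2-fold, and the sign of 1 more, mdkb, changed; 4 of the 5 main list counts stayed within 1.5 times. Medians and counts against that array are given below for some lists. The 48 hpf control array also stood apart from the other 8 in muscle genes: the summed signal of the 61 measured muscle genes was 8382 on it and 3444 on the 48 hpf ethanol array.

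The retina is built from one layer of dividing progenitors that leave the cell cycle and become ganglion cells first, then amacrine, horizontal and bipolar cells, cone and rod photoreceptors, and Müller glia. Photoreceptors come on in steps: homeobox and nuclear receptor factors such as Crx set their fate, and the proteins that turn light into a nerve signal follow. The lens, cut off from the surface ectoderm, fills its fibre cells with crystallins, and the muscles that turn the eye form around the globe over the same period.

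Values are MAS5 signals, a linear brightness for each probe set, and differences are on the log2(signal + 5) scale, on which 1 is a 2-fold difference and the change of dim genes is understated. A probe set was counted as higher or lower when the 2 arrays were at least 2-fold apart and the brighter one was above its own median. One below the median of the 36 hpf array could thus not be counted as lower, nor one below that of the 48 hpf array as higher. Between 36 and 48 hpf the control eyes had 409 probe sets higher (2.64% of 15502) and 179 lower (1.15%). Centring each array on its median turned this split to 362 higher and 265 lower. The ethanol pair, which shares no array with the control pair, had 462 higher (2.98%) and 198 lower (1.28%). Of the 409 higher in control eyes, 166 (40.6%) were higher in ethanol eyes too, which is 35.9% of the 462. For the probe sets that were lower, the overlap was 36, or 20.1% of the 179 and 18.2% of the 198. Over all 15502 probe sets the differences of the pairs correlated at r = 0.43, given as a description.

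With 1 array per group, a difference within a pair has a value and no test. The test that the design allows is a limma fit over the 8 arrays of the control and ethanol pairs at 27, 30, 36 and 48 hpf, with stage and ethanol as terms, here called the stage contrast. Its estimate is the mean of the control and the ethanol difference, which may be unequal; "rose" and "fell" below are used of genes at an adjusted p under 0.05 and at least 2-fold. It tested 9301 probe sets, of which 156 rose (1.68%) and 68 fell (0.731%). Each stage and treatment had 1 array, so its error is not a spread between replicates. That error holds technical spread together with any difference between the changes of control and ethanol eyes. A gene whose pairs differ thus tends to have a larger error. When ethanol was taken from the treatment characteristic instead, 2 probe sets rose and 0 fell, with 1135 at an unadjusted limma p under 0.05. Under either label source 36 and 48 hpf each hold 1 ethanol and 1 untreated array, so the estimates stay and their error changes. Nearly every call of the stage contrast thus rests on the titles through its error.

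Counts of genes below use 1 probe set for each of 8793 named genes, of which 277 (3.15%) were higher and 118 (1.34%) lower at 48 hpf in control eyes. In ethanol eyes 299 (3.4%) were higher and 126 (1.43%) lower, and in the stage contrast 112 (1.83%) rose and 46 (0.753%) fell of 6111 tested. The median difference over all named genes was 0.028 in control eyes and 0.009 in ethanol eyes.

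**Figure D1:**
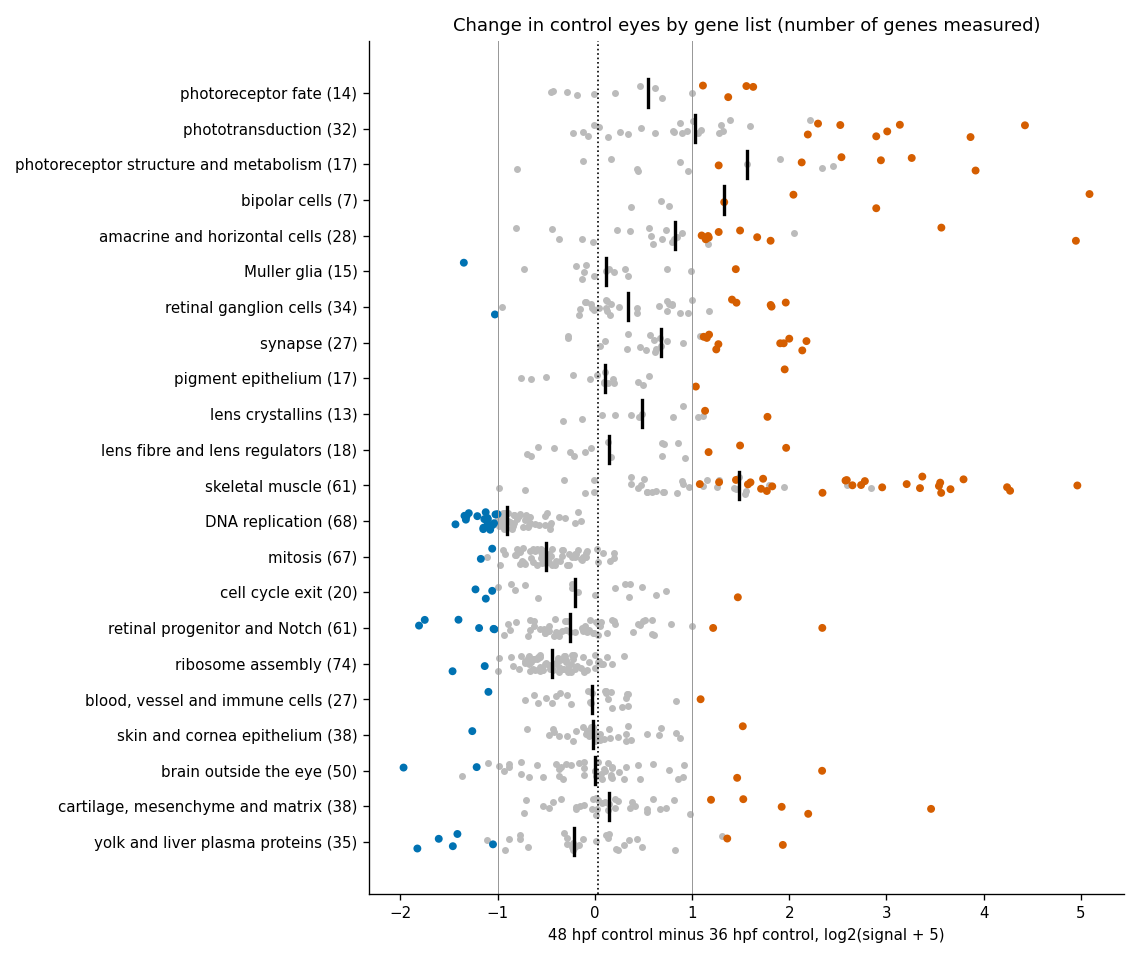
Difference between the 48 hpf and the 36 hpf control array for each measured gene, by gene list, on the log2(signal + 5) scale. Each point is 1 gene; orange and blue points were counted as higher and lower at 48 hpf, grey points were not counted, black bars are list medians, the dotted line is the median of all named genes and the grey lines mark 2-fold. Photoreceptor, inner retina, synapse and muscle genes lie to the right, with the muscle median at 1.48, and the 68 DNA replication genes all lie left of 0.

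Photoreceptor genes were higher at 48 hpf as a group in control eyes. Over the 3 photoreceptor lists, 18 of 63 measured genes were higher in control eyes and 0 were lower, with a median difference of 1.00, against 3.15% higher and 1.34% lower among all named genes. Only the 21 genes above the array median at 36 hpf could be counted as lower. In ethanol eyes 8 were higher, against 3.4% of all named genes, and the median was 0.47. In the stage contrast 6 of the 25 tested rose, against 1.83% of all genes tested. Fewer cells of a type and less RNA per cell cannot be told apart in these whole-eye samples.

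Of the fate factors, 4 of 14 were higher in control eyes and 3 in ethanol eyes, against 3.15% and 3.4% of all named genes. The list medians were 0.54 and 0.47, and 2 of the 14 tested rose in the stage contrast, against 1.83% of all genes tested. The photoreceptor homeobox factor crx had a signal of 755 at 48 hpf and 347 at 36 hpf in control eyes, and 612 at 48 hpf and 276 at 36 hpf in ethanol eyes. It rose by 1.12 ± 0.23 (SE, limma adjusted p = 0.0419) in the stage contrast, with 1.11 in the control pair and 1.14 in the ethanol pair. On the log2 scale most of its climb came before 36 hpf: on the 5 arrays without ethanol, at 24, 27, 30, 36 and 48 hpf, crx stood at 16.7, 19.1, 69.4, 347 and 755. A related homeobox factor, otx5, stood at 7.80, 8.53, 18.8, 86.1 and 277 over the same hours and rose by 1.52 ± 0.28 (SE, limma adjusted p = 0.0318).

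The factors nr2e3 and neurod1 had their steeper step on the log2 scale before 36 hpf. The rod nuclear receptor nr2e3 had 15.6, 25.7, 57.2, 239 and 331 at the 5 ages, a difference of 0.46 over the last interval, and neurod1, a bHLH factor of photoreceptor precursors, differed by 0.69. For six7, a homeobox factor of zebrafish cones, the signal was 485 at 48 hpf and 241 at 36 hpf in control eyes, and 451 at 48 hpf and 213 at 36 hpf in ethanol eyes; its control difference of 0.996 lay just under 2-fold. The cone receptor rxrga had 238 at 48 hpf and 77.6 at 36 hpf in control eyes, and 101 and 64.3 in ethanol eyes, a difference of 1.56 against 0.62. Its stage contrast of 1.09 missed the threshold (limma adjusted p = 0.0707), and so did that of rorab (0.89, limma adjusted p = 0.113). As a list, the fate genes had 7 of 14 above the array median at 24 hpf, 13 at 36 hpf and 12 at 48 hpf.

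Few phototransduction genes were above the array median before 48 hpf. Of 32 measured, 4 were above the array median at 36 hpf and 11 at 48 hpf in control eyes. In that pair 8 were counted as higher, against 3.15% of all named genes, and the list median was 1.03. In ethanol eyes 5 were above the median at 36 hpf and 6 at 48 hpf. There 4 were higher, against 3.4% of all named genes, and the median was 0.33. Of the 7 tested, 4 rose in the stage contrast, against 1.83% of all genes tested. The cone transducin gamma subunit gngt2b had a signal of 251 at 48 hpf and 6.92 at 36 hpf in control eyes, and 34.0 at 48 hpf and 8.41 at 36 hpf in ethanol eyes. It had been under 7 on each earlier array without ethanol, and both 48 hpf arrays were above all of the others. Another cone gamma subunit, gngt2a, was already above its earlier levels at 36 hpf, with 20.7, 34.8, 40.0, 122 and 725 at the 5 ages, and rose by 2.03 ± 0.26 (SE, limma adjusted p = 0.0163).

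Rod transducin genes were near their 24 hpf level until 36 hpf. The gamma subunit gngt1 stood at 19.4, 28.5, 18.6, 18.2 and 333, and in ethanol eyes at 76.0 at 48 hpf and 19.1 at 36 hpf; it rose by 2.81 ± 0.53 (SE, limma adjusted p = 0.0335). The alpha subunit gnat1 had 75.5 at 48 hpf and 4.15 at 36 hpf in control eyes, a difference of 3.14, and 18 and 4.74 in ethanol eyes, a difference of 1.24; it was too dim on average to enter the stage contrast. A dimmer probe set of gnat1 differed by 1.65 in control eyes. The cone alpha subunit gnat2 stayed below the array median, at 34.7 at 48 hpf and 17.7 at 36 hpf in control eyes.

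The calcium sensor rcvrn2, of the recoverin family, had 602 at 48 hpf and 70.4 at 36 hpf in control eyes, and 208 at 48 hpf and 58.3 at 36 hpf in ethanol eyes; it rose by 2.38 ± 0.33 (SE, limma adjusted p = 0.018). Its other probe set differed by 0.80 in control eyes. The inhibitory cone phosphodiesterase subunit pde6ha rose by 1.92 ± 0.43 (SE, limma adjusted p = 0.0499), and pde6hb differed by 2.19 in control eyes and 0.74 in ethanol eyes. The ultraviolet cone opsin opn1sw1 was close to background at 36 hpf, with 46.3 at 48 hpf and 1.90 at 36 hpf in control eyes, and 8.11 at 48 hpf and 0.375 at 36 hpf in ethanol eyes. The blue cone opsin opn1sw2 differed by 0.88 in control eyes and -0.92 in ethanol eyes, so its pairs went opposite ways. The rod opsin rho and the arrestins arr3a and saga were not measured under a single symbol here.

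**Figure D2:**
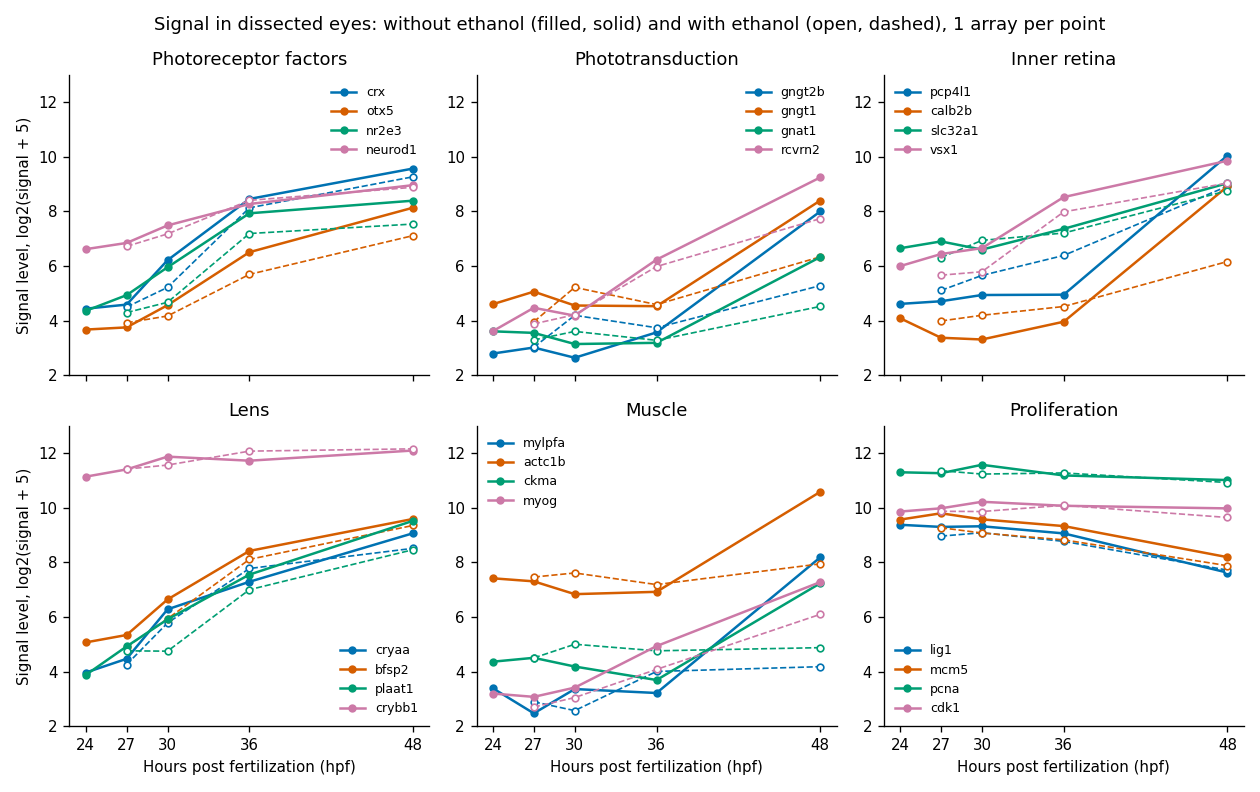
Signal of 24 genes, 4 in each panel, as log2(signal + 5), against age in hours post fertilization; filled points and solid lines are eyes without ethanol, open points and dashed lines ethanol eyes, and each point is 1 array. The factor crx climbs at 36 hpf and the transducin subunit gngt2b at 48 hpf; the muscle genes mylpfa, actc1b and ckma part from the ethanol eyes at 48 hpf.

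Genes of photoreceptor structure and metabolism gave 6 of 17 higher in control eyes and 1 in ethanol eyes, with medians of 1.56 and 0.50. Among all named genes 3.15% and 3.4% were higher in these pairs. In the stage contrast (limma) 0 of the 4 tested passed, where 1.83% of all genes tested rose. Of the 4, 3 had an unadjusted limma p under 0.05, against 1300 of 6111 named genes. The mitochondrial creatine kinase ckmt2a, a form also found in muscle, had 514 at 48 hpf and 29.4 at 36 hpf in control eyes, and 136 at 48 hpf and 28.1 at 36 hpf in ethanol eyes. That is a difference of 3.92 in control eyes and 2.09 in ethanol eyes, the only member of this list counted in both. The guanylate kinase guk1b had 90.2 at 48 hpf and 4.94 at 36 hpf in control eyes, against 26.9 and 6.27 in ethanol eyes. The retinoid carrier rbp3, secreted between photoreceptors and pigment epithelium, had 63.0 at 48 hpf and 3.85 at 36 hpf in control eyes, and 8.28 at 48 hpf and 4.70 at 36 hpf in ethanol eyes, a difference of 2.94 in control eyes and 0.45 in ethanol eyes. For elovl4b, an elongase of very long fatty acids, the differences were 2.13 and 0.60, and for aanat2, an enzyme of melatonin synthesis, 2.54 and 1.17. The outer segment protein prph2b stayed at background, at 3.87 at 48 hpf and 1.53 at 36 hpf in control eyes. Outside the lists, prom1b, a prominin of membrane protrusions and photoreceptor discs, had one of the 15 largest differences of all named genes, 4.16 in control eyes and 2.05 in ethanol eyes.

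Inner retina genes were higher in both pairs. Of 35 measured bipolar, amacrine and horizontal cell genes, 14 were higher and 0 lower in control eyes, against 3.15% and 1.34% of all named genes. In ethanol eyes 16 were higher and 0 lower, against 3.4% and 1.43%. The medians were 0.84 in control eyes and 0.98 in ethanol eyes. In the stage contrast 10 of the 20 tested rose, against 1.83% of all genes tested. Among bipolar genes 4 of 7 were higher in each pair, and 3 of the 5 tested rose. One of the 15 largest control differences of all named genes was that of pcp4l1, a member of the PCP4 family of calmodulin-binding peptides, with 1051 at 48 hpf and 26.0 at 36 hpf in control eyes, and 480.3 at 48 hpf and 78.9 at 36 hpf in ethanol eyes. The control eyes thus had 5.09 and the ethanol eyes 2.53, and the gene rose by 3.81 ± 0.48 (SE, limma adjusted p = 0.0163). Its signal in control eyes had lain between 19.5 and 26.0 on the 4 arrays up to 36 hpf. The bipolar homeobox factor vsx1 had already climbed by 36 hpf, with 59.0, 81.9, 95.9, 363 and 922 at the 5 ages, and rose by 1.19 ± 0.18 (SE, limma adjusted p = 0.0214). The zinc finger factor fezf2 went down before it went up: 105, 100.5, 74.6, 47.6 and 212, and 1.39 ± 0.28 (SE, limma adjusted p = 0.0395) in the stage contrast. The adaptor samsn1a had 106 at 48 hpf and 9.92 at 36 hpf in control eyes, and 53.9 and 6.14 in ethanol eyes.

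Of 28 amacrine and horizontal cell genes, 10 were higher in control eyes and 12 in ethanol eyes, against 3.15% and 3.4% of all named genes. In the stage contrast 7 of the 15 tested rose, against 1.83% of all genes tested. The vesicular GABA transporter slc32a1 had 519 at 48 hpf and 159.7 at 36 hpf in control eyes, and 428 at 48 hpf and 143 at 36 hpf in ethanol eyes; it rose by 1.61 ± 0.23 (SE, limma adjusted p = 0.0205). The horizontal cell and lens factor prox1a had 102 at 48 hpf and 33.1 at 36 hpf in control eyes, and 173 at 48 hpf and 28.7 at 36 hpf in ethanol eyes; it rose by 1.95 ± 0.23 (SE, limma adjusted p = 0.0163). Its difference was larger in ethanol eyes (2.4) than in control eyes (1.49). The amacrine factor barhl2 rose by 1.43 ± 0.27 (SE, limma adjusted p = 0.0323), the AP-2 factor tfap2b by 1.39 ± 0.29 (SE, limma adjusted p = 0.0433) and the calretinin gene calb2a by 1.62 ± 0.32 (SE, limma adjusted p = 0.0366). The second calretinin gene, calb2b, was far apart between the pairs: 478 at 48 hpf and 10.6 at 36 hpf in control eyes, and 66.9 at 48 hpf and 18 at 36 hpf in ethanol eyes. Its differences were 4.95 in control eyes and 1.65 in ethanol eyes, and the parvalbumin gene pvalb6 had 3.56 and 1.18. The early amacrine and horizontal factor ptf1a had its larger step on the log2 scale before 36 hpf, with 6.07, 4.94, 19.5, 122 and 184, and did not pass the test (0.46, limma adjusted p = 0.341). The GABA-synthesis gene gad1b differed by 0.89 in control eyes and 1.51 in ethanol eyes (stage contrast 1.21, limma adjusted p = 0.0797). The horizontal cell factor lhx1a was dim in control eyes, at 31.5 at 48 hpf and 32.1 at 36 hpf, and onecut1 was not measured under a single symbol here.

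**Figure D3:**
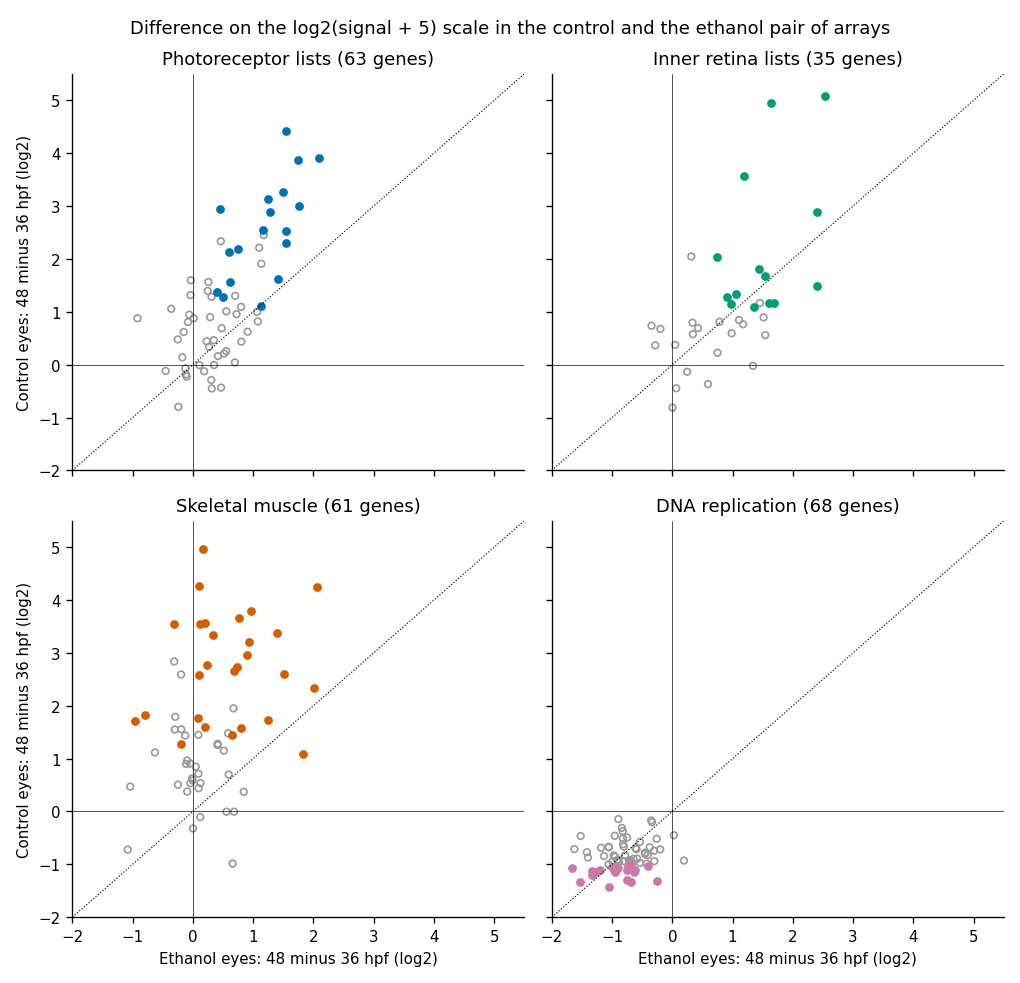
Difference between 48 and 36 hpf of each measured gene in control eyes (vertical) and in ethanol eyes (horizontal), both on the log2(signal + 5) scale, for 4 gene groups; filled points were counted as higher or lower in control eyes and the dotted line marks equal differences. The photoreceptor genes counted as higher lie above the line except crx. Muscle genes spread upward with an ethanol median of 0.12, and 6 of 61 were counted as higher and 1 as lower in ethanol eyes. The DNA replication genes gather below 0 on both axes, all but 2 of them in ethanol eyes.

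Genes of ganglion cells, the retina's first-born neurons and its output to the brain, had differences mostly above 0. Of 34 measured, 25 lay above 0 and 9 below in control eyes, and 30 and 4 in ethanol eyes. Among all 8793 named genes, 4622 lay above 0 in control eyes and 4477 in ethanol eyes. In control eyes 5 were higher and 1 lower, against 3.15% and 1.34% of all named genes, with a median of 0.34. In ethanol eyes 12 were higher and 1 lower, against 3.4% and 1.43%, and the median was 0.91. In the stage contrast 3 of the 27 tested rose, against 1.83% of all genes tested, and 0 fell. The Iroquois factor irx4a had 214 at 48 hpf and 51.1 at 36 hpf in control eyes, and 146 at 48 hpf and 27.1 at 36 hpf in ethanol eyes; it rose by 2.1 ± 0.27 (SE, limma adjusted p = 0.0163). Its relative irx4b differed by 1.82 in control eyes and 1.94 in ethanol eyes. The Slit receptor robo2, which guides axons, rose by 1.3 ± 0.24 (SE, limma adjusted p = 0.0326). The factor atoh7, which starts the ganglion cell fate, ran the other way: it peaked at 36 hpf among the arrays without ethanol (45.4, 59.5, 358, 514 and 263) and differed by -0.95 in control eyes and -1.39 in ethanol eyes. It did not pass the stage contrast (-1.17, limma adjusted p = 0.102). The chemokine receptor cxcr4b, present in young ganglion cells, differed by -1.03 in control eyes and -0.79 in ethanol eyes. Against the other 36 hpf array its control difference was -0.45, under 2-fold. The growth cone gene gap43 differed by 0.96 and 0.88.

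Synapse genes were higher in both pairs: 10 of 27 in control eyes and 8 in ethanol eyes, against 3.15% and 3.4% of all named genes. The medians were 0.68 and 0.76, and 6 of the 17 tested rose, against 1.83% of all genes tested. The fusion protein gene snap25b had 719.9 at 48 hpf and 160.2 at 36 hpf in control eyes, and 517 at 48 hpf and 178 at 36 hpf in ethanol eyes; it rose by 1.82 ± 0.34 (SE, limma adjusted p = 0.0328). Synaptophysin b (sypb) rose by 1.80 ± 0.24 (SE, limma adjusted p = 0.018), the neuronal sodium pump subunit atp1a3a by 1.86 ± 0.28 (SE, limma adjusted p = 0.0214) and the NMDA receptor subunit grin1a by 1.59 ± 0.34 (SE, limma adjusted p = 0.0455). The other snap25 gene, snap25a, differed by 0.47 in control eyes and did not pass (limma adjusted p = 0.148). Sums over the synapse list were 3868 at 48 hpf and 1495 at 36 hpf in control eyes, and 3437 at 48 hpf and 1677 at 36 hpf in ethanol eyes.

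Müller glia genes had no common direction. Of 15 measured, 1 was higher and 1 lower in control eyes, against 3.15% and 1.34% of all named genes. The list median of 0.11 changed sign with quantile normalization (-0.054) and against the other 36 hpf array (-0.061). The retinoid-binding protein rlbp1a had 499 at 48 hpf and 179 at 36 hpf in control eyes, and 204 at 48 hpf and 143 at 36 hpf in ethanol eyes, while the glial filament gfap was lower, at 31.2 at 48 hpf and 87.1 at 36 hpf in control eyes. Neither passed the stage contrast (limma adjusted p = 0.0595 for rlbp1a and 0.0779 for gfap). Glutamine synthetase (glula) differed by 0.19 in control eyes and 1.14 in ethanol eyes. In the pigment epithelium, 2 of 17 genes were higher in control eyes, against 3.15% of all named genes. Its retinoid isomerase rpe65a had 53.9, 63.7, 106, 155 and 615 at the 5 ages and rose by 1.62 ± 0.23 (SE, limma adjusted p = 0.0201). Of the genes of pigment synthesis, dct differed by 0.20, and tyr was below the median at 6.53 at 48 hpf and 13.1 at 36 hpf in control eyes.

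Lens genes were split between crystallins already bright at 24 hpf and later ones. Over the lens lists 5 of 31 genes were higher and 0 lower in control eyes, against 3.15% and 1.34% of all named genes. In ethanol eyes 8 were higher, against 3.4%, and 4 of the 18 tested rose, against 1.83% of all genes tested. Of 13 measured crystallins 2 were higher in each pair, with a list median of 0.49 in control eyes and 0.36 in ethanol eyes; against the other 36 hpf array the control median was 0.17. Of 18 lens fibre and regulator genes 3 were higher in control eyes and 6 in ethanol eyes, with medians of 0.15 and 0.58, and 3 of the 13 tested rose. The control median of the fibre and regulator list changed sign with quantile normalization (-0.015) and against the other 36 hpf array (-0.144). The beta crystallin crybb1 was bright throughout, with 2240.1, 2694, 3725, 3362 and 4353 at the 5 ages, a difference of 0.37, and cryba4 differed by 0.46. The alpha crystallin cryaa, a small chaperone of the lens fibre, stood at 10.6, 17.1, 72.6, 151 and 529.9, and at 359.6 at 48 hpf and 214 at 36 hpf in ethanol eyes. It rose by 1.26 ± 0.26 (SE, limma adjusted p = 0.0408), with 1.78 in the control pair and 0.74 in the ethanol pair. Its relative cryaba was near background, at 0.795 at 48 hpf and 2.26 at 36 hpf in control eyes.

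The lens beaded-filament gene bfsp2 had 764 at 48 hpf and 336 at 36 hpf in control eyes, and 647 at 48 hpf and 271 at 36 hpf in ethanol eyes; it rose by 1.21 ± 0.19 (SE, limma adjusted p = 0.0215). For plaat1, a phospholipase that clears organelles from lens fibres, the 5 ages gave 9.68, 25.3, 55.3, 182 and 728, and it rose by 1.72 ± 0.26 (SE, limma adjusted p = 0.0214). The gamma crystallin crygm2c had 67.2 at 48 hpf and 27.9 at 36 hpf in control eyes, and 68.1 and 17.8 in ethanol eyes; it was too dim on average to be tested. Other gamma crystallins were nearer their 36 hpf levels: crygmxl2 differed by 0.49 and crygs1 by 0.91. The lens channel gene gja8b stayed below the median at 5.57 at 48 hpf and 11.7 at 36 hpf in control eyes, and mipb, lim2.4, hsf4, foxe3 and pitx3 were not measured under a single symbol here.

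Muscle, a long list, gave by number more genes counted as higher in control eyes than any other list, and fewer in ethanol eyes. As a share of the list, bipolar genes had more in control eyes (4 of 7). Of 61 muscle genes measured, 27 were higher and 0 lower at 48 hpf in control eyes, against 3.15% and 1.34% of all named genes. Only the 7 above the median of the 36 hpf control array could be counted as lower, against 5302 of 8793 named genes. The 0 lower thus says nothing of the other muscle genes. The median of the muscle list was 1.48. In ethanol eyes 6 were higher and 1 lower, against 3.4% and 1.43% of all named genes, with a median of 0.12. The summed signal was 8382 at 48 hpf and 2232 at 36 hpf in control eyes, and 3444 at 48 hpf and 2794 at 36 hpf in ethanol eyes. Of the 61, 29 were above the array median on the 48 hpf control array and 7 on the 36 hpf control array; the ethanol arrays had 14 at 48 hpf and 9 at 36 hpf. On 18 genes the 48 hpf array was the only one of the 5 without ethanol above its median, against 214 of all 8793 named genes. The difference between the pairs was not tested.

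The fast myosin light chain mylpfa had 5.48, 0.552, 5.28, 4.30 and 285 at the 5 ages without ethanol, and 13.1 at 48 hpf and 11.1 at 36 hpf in ethanol eyes. Its differences were 4.96 and 0.17, with 4.47 and 0.14 for a further light chain gene, myl13. The muscle creatine kinase ckma had 145 at 48 hpf and 7.93 at 36 hpf in control eyes, and 24.4 at 48 hpf and 22.1 at 36 hpf in ethanol eyes. The troponin C gene tnnc2.2 differed by 4.27 in control eyes and 0.11 in ethanol eyes, the troponin T gene tnnt3b by 3.56 and 0.21, and the calcium pump atp2a1 by 3.21 and 0.93. The sarcomere actin actc1b had 1523 at 48 hpf and 116 at 36 hpf in control eyes, a difference of 3.66; its other 3 probe sets differed by 3.68, 0.11 and 0.02. The troponin I gene tnni2b.1 was higher in both pairs, with 365 at 48 hpf and 14.6 at 36 hpf in control eyes, and 72.8 at 48 hpf and 13.7 at 36 hpf in ethanol eyes.

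The regulators of muscle fate were nearer to each other in the pairs. Myogenin (myog), the factor that starts muscle differentiation, had 4.17, 3.43, 5.66, 25.6 and 149.9 at the 5 ages, a difference of 2.34, and in ethanol eyes 63.4 at 48 hpf and 11.9 at 36 hpf, a difference of 2.01. The earlier factor myod1 differed by 1.08 in control eyes and 1.83 in ethanol eyes. Of 19 muscle genes tested, 2 rose in the stage contrast, against 1.83% of all genes tested. These were the Z-disc gene nexn, by 2.38 ± 0.42 (SE, limma adjusted p = 0.029), and the chaperone hsp90aa1.1, which folds myosin, by 1.49 ± 0.22 (SE, limma adjusted p = 0.0214). By contrast ckma had 1.83 (limma adjusted p = 0.167) and actc1b 2.21 (limma adjusted p = 0.103).

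Heart muscle genes of the same list had another course. The cardiac myosin light chain myl7 had 495, 314, 184, 11.4 and 48.8 at the 5 ages without ethanol, and 81.6 at 48 hpf and 164 at 36 hpf in ethanol eyes. Cardiac troponin T (tnnt2a) had 469.6, 292, 127, 10.3 and 49.1, and 82.3 and 147 in ethanol eyes. For both, the 36 hpf control array was the lowest of these 7, the control difference was above 0 (1.71 and 1.82) and the ethanol difference below it (-0.96 and -0.80). The cardiac myosin heavy chain myh7 was likewise lowest at 36 hpf in control eyes, with 89.7 at 48 hpf and 3.07 at 36 hpf in control eyes and 22.9 and 29.7 in ethanol eyes. How much muscle or heart tissue each dissection carried was not tested.

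**Figure D4:**
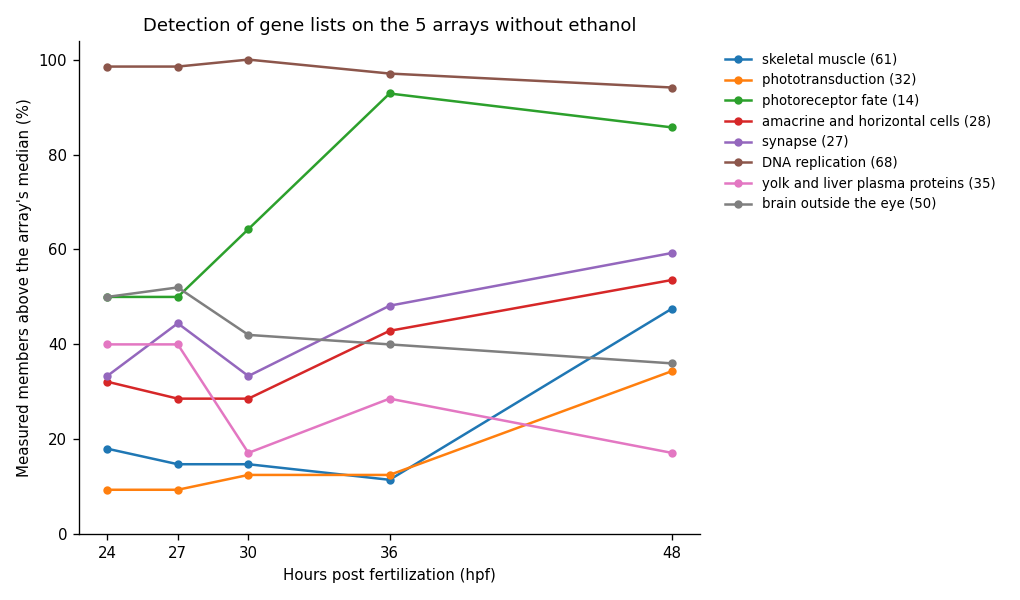
Share of the measured genes of 8 lists that lay above the array median on the 5 arrays without ethanol, in percent, against age in hours post fertilization; each point is 1 array and the number of genes stands beside each list. The photoreceptor fate genes go up by 36 hpf (13 of 14), and the muscle (29 of 61) and phototransduction (11 of 32) genes at 48 hpf.

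Proliferation genes were lower at 48 hpf, those of DNA replication by more than those of mitosis. Of 68 DNA replication genes, 20 were lower and 0 higher in control eyes, against 1.34% lower among all named genes; all 68 differences were below 0, with a median of -0.90. In ethanol eyes 17 were lower, against 1.43% of all named genes, and the median was -0.79. All 68 were tested in the stage contrast and 15 fell, against 0.753% of all genes tested. Against the other 36 hpf array the median was -0.63 and the count over both proliferation lists was 5 in place of 22, while centring on array medians made it 38. Against that array mcm2 differed by -0.87, mcm3 by -0.90, mcm5 by -0.63 and dnmt1 by -0.86, each under 2-fold.

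DNA ligase 1 (lig1), which seals replicated strands, had 192 at 48 hpf and 528 at 36 hpf in control eyes, and 205 at 48 hpf and 430.2 at 36 hpf in ethanol eyes. It fell by 1.24 ± 0.19 (SE, limma adjusted p = 0.0214), lower in both pairs. Its signal had been 658, 623 and 633 at 24, 27 and 30 hpf. The mismatch repair gene msh6 had 672, 736, 646, 423 and 166 at the 5 ages and a stage contrast of -1.43 ± 0.17 (SE, limma adjusted p = 0.0163). Among the subunits of the replicative helicase, mcm2 had -1.20 ± 0.17 (SE, limma adjusted p = 0.0201), mcm3 -1.27 ± 0.17 (SE, limma adjusted p = 0.018) and mcm5 -1.04 ± 0.17 (SE, limma adjusted p = 0.0248), each lower in both pairs, though a second probe set of mcm3 differed by -0.42. Geminin (gmnn), which blocks a second firing of origins, had -1.37 ± 0.23 (SE, limma adjusted p = 0.0252), and the maintenance DNA methyltransferase dnmt1 -1.01 ± 0.20 (SE, limma adjusted p = 0.0387). The helicase hells had -1.23 ± 0.17 (SE, limma adjusted p = 0.0201) and the origin subunits orc5 and orc6 -1.04 and -1.03 (limma adjusted p = 0.0286 and 0.0252). The sliding clamp pcna stayed bright, at 2055 at 48 hpf and 2311 at 36 hpf in control eyes, and 1931 at 48 hpf and 2462 at 36 hpf in ethanol eyes, a difference of -0.17 in control eyes and -0.35 in ethanol eyes.

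Other genes among the largest differences or smallest p were not on the list. In control eyes sfrp5 and dbx1a were lower by more than cad, with differences of -1.81 and -1.72 against -1.58. Their ethanol differences were -1.12 and 0.20, and neither passed the stage contrast (limma adjusted p = 0.0933 and 0.348). The pyrimidine synthesis enzyme cad had 184 at 48 hpf and 559 at 36 hpf in control eyes, and 245 at 48 hpf and 467 at 36 hpf in ethanol eyes; its stage contrast was -1.25 ± 0.20 (SE, limma adjusted p = 0.0245). The cell cycle factor mybl2b had -1.23 ± 0.18 (SE, limma adjusted p = 0.0214), the de novo methyltransferase dnmt3bb.2 -1.29 ± 0.18 (SE, limma adjusted p = 0.0196) and the DNA-damage-associated gene wdr76 -1.51 ± 0.19 (SE, limma adjusted p = 0.0163).

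Of 67 mitosis genes, 2 were lower in control eyes and 1 in ethanol eyes, against 1.34% and 1.43% of all named genes. In control eyes 61 differences were below 0, with a median of -0.50, against 4159 of 8793 named genes below 0. Of the 61 tested, 0 passed the stage contrast and 27 had an unadjusted p under 0.05 (limma), against 1300 of 6111 named genes. The condensin subunit ncaph had 117 at 48 hpf and 271 at 36 hpf in control eyes, and 159 and 228 in ethanol eyes. The spindle motor kif15 had 229.5 at 48 hpf and 483 at 36 hpf in control eyes, and 258 and 372 in ethanol eyes. Against the other 36 hpf array ncaph differed by -0.93 and kif15 by -0.69, both under 2-fold. The mitotic kinase cdk1 differed by -0.10 in control eyes and -0.45 in ethanol eyes, its cyclin ccnb1 by -0.60 and -0.35, and the kinase plk1 by -0.47 and -0.46. The brightest probe set of mki67 differed by -0.56, and its other probe sets by -1.43 and -1.06. Of 20 genes of cell cycle exit, 1 was higher and 3 lower in control eyes, against 3.15% and 1.34% of all named genes. The list median was -0.20 (-0.45 against the other 36 hpf array). The stress and exit gene gadd45ga had 844 at 48 hpf and 301 at 36 hpf in control eyes, and 381 and 335 in ethanol eyes. The retinoblastoma gene rb1, a brake on entry into S phase, itself had a stage contrast of -1.03 ± 0.20 (SE, limma adjusted p = 0.0382). In control eyes rbl1 and mycn, the latter a driver of division and not a brake on it, were also lower, by differences of -1.06 and -1.12. Against the other 36 hpf array rb1 differed by -0.74 and rbl1 by -0.56, both under 2-fold. The inhibitor cdkn1ca differed by -0.72 and -1.15. Ribosome assembly genes, tied to growth, had a median of -0.44 in control eyes with 66 of 74 below 0. Of the 74, 2 were counted as lower, polr1a and rrs1, against 1.34% of all named genes. Against the other 36 hpf array the median was -0.14, and polr1a and rrs1 were under 2-fold (-0.84 and -0.38).

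Progenitor and Notch genes were mixed. Of 61, 2 were higher and 6 lower in control eyes, against 3.15% and 1.34% of all named genes (median -0.26, or -0.49 against the other 36 hpf array). In ethanol eyes 3 were higher and 2 lower, against 3.4% and 1.43% (median 0.19). The neural precursor gene sox19a had 38.4 at 48 hpf and 147 at 36 hpf in control eyes, and 221 at 48 hpf and 226 at 36 hpf in ethanol eyes, and the receptor notch3 had 20.8 at 48 hpf and 81.9 at 36 hpf in control eyes, and 143 at 48 hpf and 99.7 at 36 hpf in ethanol eyes. Thus sox19a differed by -1.81 in control eyes and -0.029 in ethanol eyes, and notch3 by -1.75 and 0.49. The proneural factor ascl1b, the Notch ligand dla and the progenitor receptor nr2e1 were also lower in control eyes (-1.19, -1.03 and -1.04) with ethanol differences of 0.29, 0.003 and 0.20. The Wnt receptor fzd5 was lower in both pairs and fell by 1.26 ± 0.28 (SE, limma adjusted p = 0.0499). The retinal homeobox gene rx3 was higher, with 161 at 48 hpf and 27.7 at 36 hpf in control eyes, and 203 at 48 hpf and 69.0 at 36 hpf in ethanol eyes; it rose by 1.92 ± 0.30 (SE, limma adjusted p = 0.0215). The eye field genes pax6a and sox2 differed by 0.035 and -0.13. The growth factor mdkb had 658 at 48 hpf and 280.2 at 36 hpf in control eyes, a difference of 1.22, and 533 and 704 in ethanol eyes, a difference of -0.40; against the other 36 hpf array its control difference was -0.097.

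Some markers of other tissues, such as hbae3 and krt4, were bright on both control arrays, and others were below the array median. Of the lists of blood, skin and brain 1 or 2 genes were counted each way in control eyes. Among all named genes 3.15% were higher and 1.34% lower in this pair. Blood, vessel and immune genes gave 1 of 27 higher and 1 lower (summed signal 4912 at 48 hpf and 4632 at 36 hpf); the embryonic globin hbae3 stood at 1977 at 48 hpf and 1568 at 36 hpf in control eyes, and the vessel receptor kdrl at 42.4 and 68.2. Skin and cornea genes gave 1 of 38 higher and 1 lower (summed signal 20794 and 17832 at these ages), with the keratin krt4 at 1864 at 48 hpf and 1678 at 36 hpf in control eyes. Genes of the brain outside the eye gave 2 of 50 higher and 2 lower in control eyes, with a median of 0.003, or -0.50 against the other 36 hpf array. In ethanol eyes 11 were higher and 0 lower, against 3.4% and 1.43% of all named genes, with a median of 0.51. In the stage contrast 3 of the 33 tested rose, against 1.83% of all genes tested. The sum of the brain genes was 2733 at 48 hpf and 2601 at 36 hpf in control eyes, and 5803 at 48 hpf and 3496 at 36 hpf in ethanol eyes. The hindbrain factor egr2b was at background on both control arrays (0.345 and 0.103), and en2a, of the midbrain border, was below the median (23.1 and 31.4). The neural tube factor olig3 had 11.1 at 48 hpf and 58.1 at 36 hpf in control eyes, and 86.7 at 48 hpf and 124 at 36 hpf in ethanol eyes, a control difference of -1.97. Cartilage and matrix genes gave 5 of 38 higher and 0 lower, against 3.15% and 1.34% of all named genes (summed signal 12707 and 10412). The fibrillar collagen col2a1a had 1523 at 48 hpf and 329 at 36 hpf in control eyes, and 996 at 48 hpf and 291 at 36 hpf in ethanol eyes. It rose by 1.98 ± 0.41 (SE, limma adjusted p = 0.0415). The cartilage protein matn1, at 0.5 on the 36 hpf control array, differed by 3.46 in control eyes and 1.15 in ethanol eyes. Yolk and liver plasma proteins gave 2 of 35 higher and 5 lower, against 3.15% and 1.34% of all named genes (summed signal 1432 and 1637). The apolipoprotein apoa1a had 946, 535, 94.3, 330.0 and 157 at the 5 ages, and transferrin (tfa) 304, 218, 48.3, 51.4 and 16.2. The part of these tissues in the results above was not tested.

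**Figure D5:**
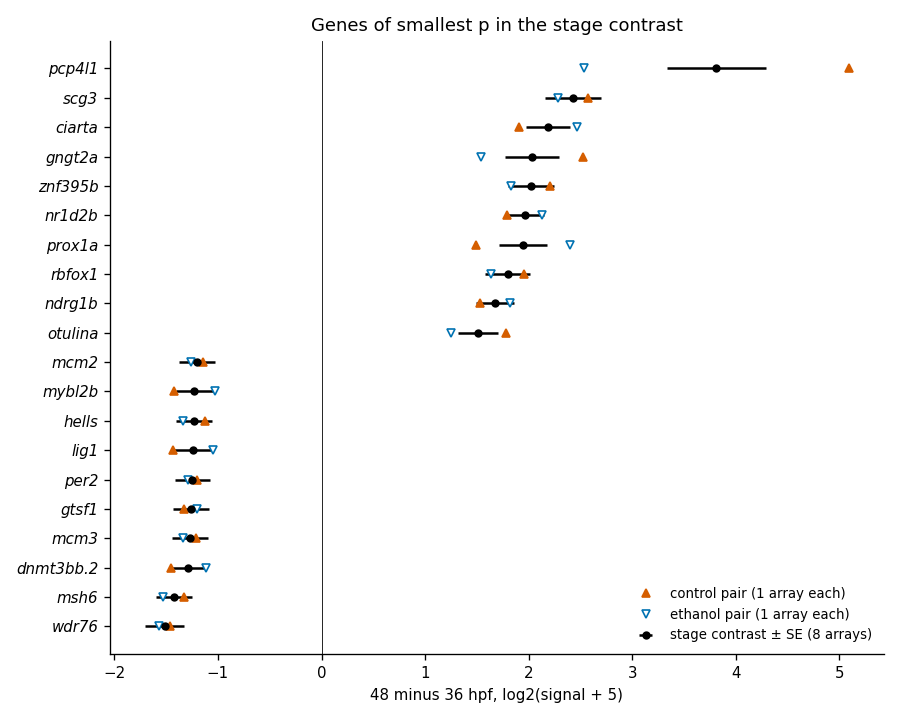
Genes of smallest p in the stage contrast, 10 that rose and 10 that fell, on the log2(signal + 5) scale; black points with bars are the limma estimate ± SE over 8 arrays, filled triangles the control pair and open triangles the ethanol pair. The pairs lie farthest apart for pcp4l1, at 5.09 in control eyes and 2.53 in ethanol eyes.

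Among the 10 genes of smallest p that rose in the stage contrast, the secretory granule protein scg3 had 323 at 48 hpf and 50.0 at 36 hpf in control eyes, and 231 at 48 hpf and 43.6 at 36 hpf in ethanol eyes; it rose by 2.43 ± 0.27 (SE, limma adjusted p = 0.0156). The neuronal splicing factor rbfox1 rose by 1.80 ± 0.22 (SE, limma adjusted p = 0.0163), the stress-regulated gene ndrg1b by 1.67 ± 0.18 (SE, limma adjusted p = 0.0156), the deubiquitinase otulina by 1.51 ± 0.19 (SE, limma adjusted p = 0.0163) and the zinc finger gene znf395b by 2.02 ± 0.22 (SE, limma adjusted p = 0.0156). The signal of ndrg1b had been 5.04 at 24 hpf and 108 at 36 hpf. Of those that fell, gtsf1, known in other animals for small-RNA silencing of transposons, had -1.26 ± 0.17 (SE, limma adjusted p = 0.018).

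Of the interval counts on arrays without ethanol, the last was the largest, and it was also the longest. From 24 to 27 hpf 14 probe sets were higher and 12 lower, from 27 to 30 hpf 129 and 87, from 30 to 36 hpf 186 and 41, and from 36 to 48 hpf 409 and 179. Neighbouring intervals share an array. At the edge of the count, pgk1 (1.008) and pbx1a (1.004) lay just inside 2-fold, hprt1l and ada2a (both 0.998) just outside, and on the lower side orc1 (-1.001) was inside and e2f8 (-0.998) outside.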

How the data were processed

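The authors deposited 1 table of MAS5 signal intensity per array, on a linear scale, for 9 arrays of total RNA from dissected eyes; the labels' protocols name the Affymetrix labelling and the submitters' processing notes name MAS5, whose version the notes leave out. The mean intensity after trimming 2% at each end was 125.02 on every deposited array, so values were used as deposited, and array medians ran between 36.8 and 45.22. Of 15617 probe sets, the 115 that carry spikes or controls were dropped, and the rest taken as log2(signal + 5). Gene symbols came from the platform annotation: 10802 probe sets had 1 symbol, 135 several and 4680 none given, and 10718 symbols were looked up in a current gene table. The probe set that was brightest over the 9 arrays stood for a gene. Differences within a pair have no test. For the stage contrast, lmFit and eBayes of limma 3.58.1 (R 4.3.3) were run, with calls at a Benjamini-Hochberg adjusted p of 0.05 and at least 2-fold, on the 9301 probe sets in the upper 60% by mean, with 3 residual degrees of freedom and 5.66 prior degrees of freedom. The fit was tested on simulated data with 200 probe sets shifted at 48 hpf. It recovered 26 of them at a log2 shift of 1 and 179 at a shift of 2. A recovery also needed an estimate of at least 2-fold, so at a shift of 1 many fail by that cut alone. The control and ethanol arrays at 48 hpf were shifted alike. A gene near 2-fold that did not pass is thus not shown to be unchanged. Array number limits the precision. No counts or depth exist for array signals.

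Named genes were drawn from the 15 largest differences each way in the control pair and the 10 smallest p each way in the stage contrast. The key genes and up to 8 called members of each of 22 lists were added. Not all genes that meet this rule are printed. Beyond it, six7, myl7, tnnt2a, opn1sw2, cryba4, crygmxl2, crygs1, cryaba, nexn, hsp90aa1.1, gmnn, orc5 and orc6 were named after their values were seen. So were foxa2 and the clock, glycolysis and granule genes at the end. The age pair and the gene lists were chosen with earlier results of these data known. Alternatives were other pseudocounts, scalings, filters, folds and label sources. No sequence or genome coordinate was used.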

Additional observations from a re-analysis of the deposited data

Results flagged for a closer look

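The pairs were counted in opposite directions for 3 probe sets higher in control eyes and lower in ethanol eyes, and for 2 that were lower in control eyes and higher in ethanol eyes. Among genes with a symbol other than a clone name, represented by their brightest probe set, foxa2 was the only one. The forkhead factor foxa2, known for the floor plate and endoderm, had a signal of 13.6 at 48 hpf and 43.1 at 36 hpf in control eyes, a difference of -1.38 (log2), and 99.5 at 48 hpf and 43.8 at 36 hpf in ethanol eyes, a difference of 1.1. Its stage contrast was -0.14 ± 0.49 (SE, limma adjusted p = 0.897). The difference between the pairs was not tested.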

How the results depend on the processing

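No paired analysis was possible because each group was 1 array, with no replicate numbers to pair by; the stage contrast takes ethanol as a term. In control eyes the 409 probe sets that were higher became 624 with no filter on signal and 176 both with the brighter array above its upper quartile and at 3-fold. The 179 that were lower became 109 with a pseudocount of 16, 81 with the upper quartile, 14 at 3-fold and 298 against the 36 hpf array that the treatment characteristic marks as untreated. Of list counts, the 18 photoreceptor genes became 31 with no filter; with the upper quartile the 5 lens genes became 3 and the 27 muscle genes 10. The 22 proliferation genes became 38 with arrays centred on their medians and 5 against the other 36 hpf array. The other 35 list counts stayed within 1.5 times, and the 14 inner retina genes did so under each setting run.

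In the stage contrast the 156 probe sets that rose became 39 in the upper 30% of probe sets, 237 with no filter, 2 with ethanol from the treatment characteristic and 241 as a slope over the 5 arrays without ethanol. The 68 that fell became 117 with centred arrays, 0 with the treatment characteristic (limma, 1135 of all probe sets tested at an unadjusted p under 0.05) and 158 by adjusted p alone. Without the 27 hpf arrays 150 rose and 69 fell, without the 30 hpf arrays 181 and 70, and on the 36 and 48 hpf arrays alone 192 and 66. Among the values of single named genes in this contrast, 118 lost the threshold, 51 gained it and 1435 kept their side of it. The median of the Müller glia list became -0.054 with quantile normalization and -0.061 against the other 36 hpf array, and that of the lens fibre list -0.015 and -0.144. The difference of mdkb became -0.097 against the other 36 hpf array. Against that array 23 of the 127 named genes counted in control eyes lay under 2-fold, and 9 of 22 list medians moved and 2 changed sign. The cause of these changes was not tested. Dim genes such as opn1sw1 and matn1 lie near background at 36 hpf, where MAS5 signals give their level only roughly.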

Other observations

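Clock genes were among the genes of smallest p, and a clock list, added after those values were seen, is given as a description. The transcriptional repressor of the clock ciarta had 198, 135, 129, 69.2 and 273 at 24, 27, 30, 36 and 48 hpf without ethanol, and 399 at 48 hpf and 68.3 at 36 hpf in ethanol eyes. The nuclear receptor nr1d2b (Rev-erb beta) had the same course, with 188, 159, 130.0, 76.4 and 277, and 379 and 82.9 in ethanol eyes. Both arrays at 36 hpf were the lowest and both at 48 hpf the highest of these 7. In the stage contrast ciarta rose by 2.18 ± 0.21 (SE, limma adjusted p = 0.00959) and nr1d2b by 1.96 ± 0.19 (SE, limma adjusted p = 0.00959); a second probe set of nr1d2b differed by 0.44 in control eyes. The light-induced period gene per2 ran opposite, with 48.0, 98.9, 128, 126 and 51.8, and had -1.25 ± 0.17 (SE, limma adjusted p = 0.018), while its other probe set differed by 0.25. The repressor nfil3-6 had 194 at 48 hpf and 21.3 at 36 hpf in control eyes, and 43.1 at 48 hpf and 22.7 at 36 hpf in ethanol eyes. Its other probe set differed by 0.73 in control eyes, and the brighter one did not pass the stage contrast (1.86, limma adjusted p = 0.108). Of 31 measured clock genes 4 were higher and 1 lower in control eyes, against 3.15% and 1.34% of all named genes, with a median of 0.11. The activators bmal1a and bmal1b differed by 0.29 and -0.20. The labels state neither the light cycle of the embryos nor the hour at which eyes were taken.

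Genes of glycolysis and lactate transport, also listed after values were seen, gave 7 of 31 higher and 0 lower in control eyes, with a median of 0.54. The shares of all named genes were 3.15% and 1.34%. In ethanol eyes 6 were higher, against 3.4% of all named genes. The glucose transporter slc2a3a had 79.2 at 48 hpf and 29.2 at 36 hpf in control eyes, and 103 at 48 hpf and 36.9 at 36 hpf in ethanol eyes; it rose by 1.33 ± 0.23 (SE, limma adjusted p = 0.0252). The lactate transporter slc16a3b had 128 at 48 hpf and 53.7 at 36 hpf in control eyes, and 194 at 48 hpf and 47.9 at 36 hpf in ethanol eyes; it rose by 1.55 ± 0.27 (SE, limma adjusted p = 0.0286). The muscle aldolase aldoab differed by 3.37 in control eyes and 0.59 in ethanol eyes, and the neural aldolase aldocb by 0.48 and 1.21. Of 13 measured genes of secretory granules and neuropeptides, likewise listed after values were seen, 3 were higher in control eyes, against 3.15% of all named genes. Among them was scg5, with 182 at 48 hpf and 82.9 at 36 hpf in control eyes, and 162 at 48 hpf and 87.3 at 36 hpf in ethanol eyes.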
